A study of Mus musculus with 12 samples.

Results

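The segment of mouse chromosome 8 around *Ocel1* and *Gdf15* comprised 42 named genes, and each of them was found by its symbol among the 23863 genes of the expression table. The genes run from *Atp13a1* to *Eps15l1* and lie before the locus of the miR-23a, miR-27a and miR-24-2 cluster, which the knockout mice lack. The interval between these outermost genes held 109 genes of the table, 67 of them not members. RNA-seq was carried out on bone marrow derived macrophages of *Mirc11-/-* (mirn23a-/-) and wildtype C57BL/6 mice aged 6 to 8 weeks. Marrow was cultured for 7 days with 15% L929 conditioned medium, a source of M-CSF, and the macrophages were then polarized for 24 h. The M1 condition was LPS at 100 ng/ml with interferon γ, stated as 50 ng/ml in the protocol and as 10 ng/ml in the treatment field, and the M2 condition was IL-4 and IL-13 at 20 ng/ml each. There were 4 groups of 3 libraries: *Mirc11-/-* M1, wildtype M1, *Mirc11-/-* M2 and wildtype M2. The labels do not say whether the animals were littermates, and p-values measure the spread between these libraries only.

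Title and treatment field gave opposite polarizations for 6 of the 12 libraries, 2 from *Mirc11-/-* and 4 from wildtype mice. Groups were taken from the titles, which are also the names of the table's columns and in which Ako stands for *Mirc11-/-* and Wt for wildtype, as in Ako2271M1. *Nos2*, an M1 marker, was between 938 and 1630 FPKM, a fragment count scaled to transcript length and library total, with M1 in the title, and between 0.802 and 2.26 FPKM with M2 there. *Mrc1*, an M2 marker, was between 0.123 and 0.403 FPKM in the M1 and between 230 and 301 FPKM in the M2 libraries by title. Most called changes below are therefore also given for the 6 libraries whose labels agree, 2 *Mirc11-/-* and 1 wildtype in each condition, where the lone wildtype library is assumed to vary like the other groups. All 8 macrophage markers were tested, with *Lyz2* the most abundant, and libraries of 1 group correlated at 0.988 to 0.997 across genes. Neither *Mir23a* nor *Mir24-2* had a value above 0 in any library of either genotype, and *Mir27a* had one in 1 wildtype M1 library alone, so the deleted genes themselves give no check of genotype in these libraries.

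MicroRNAs guide Argonaute proteins to messenger RNAs, mostly through pairing between the microRNA's seed, its bases 2 to 8, and the 3′ untranslated region, and the pairing lowers the level or translation of the target. Loss of a microRNA is therefore known to raise its direct targets. The 3 microRNAs of the cluster lie within a short stretch of chromosome 8 on the plus strand. Their mature sequences from RefSeq are shown with the seed in capitals, since a seed match is the measure by which members can be compared with other genes (GRCm38.p6, chr8:84208563-84208583, chr8:84208727-84208747 and chr8:84208875-84208896).
miR-23a-3p: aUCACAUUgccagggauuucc
miR-27a-3p: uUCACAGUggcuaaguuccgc
miR-24-3p: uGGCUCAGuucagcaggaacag

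Every member had an annotated 3′ untranslated region, and the longest of each gene (GENCODE M21) was searched for the 7 bases complementary to each seed. A match to at least 1 of the 3 seeds was found in 15 of the 42 members (35.7%), against 40.2% of 9438 tested genes with an annotated region. By microRNA, the members with a match numbered 11 for miR-24-3p (26.2%, against 18.8% of tested genes), 4 for miR-27a-3p (9.52%, against 16.7%) and 1 for miR-23a-3p (2.38%, against 16.3%). Of the 10 members that were higher in *Mirc11-/-* macrophages in M1, M2 or both, 3 carried a match, all to miR-24-3p, and of the 5 that were lower, 1 did. Those matches are shown with the seed-complementary bases in capitals and up to 8 bases on either side. A match is a description of the sequence and does not show that the microRNA acts there.
*Ocel1*, miR-24-3p: cactccagCTGAGCCgcagcagc
*Ssbp4*, miR-24-3p, first match: ggccagagCTGAGCCgcgctccg
*Ssbp4*, miR-24-3p, the other match: gtcccggcCTGAGCCcagggtcc
*Klhl26*, miR-24-3p: ccagttacCTGAGCCaggagcac
*Map1s*, miR-27a-3p: agttcctcACTGTGAcccaggtt

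The members with the largest change in M1 or M2 thus included genes with no seed match in the longest annotated region, among them *Fam32a*, *Armc6* and *Ap1m1*, which were higher, and *B3gnt3*, *Gdf15*, *Tmem221* and *Fcho1*, which were lower. The members do not form a pathway. They share a stretch of chromosome, and their roles span secretion and membrane traffic (*Gdf15*, *Ap1m1*, *Fcho1*, *Cope*), transcription (*Ell*, *Rfxank*, *Nr2f6*, *Crtc1*), RNA processing and decay (*Upf1*, *Lsm4*, *Ddx49*), metabolism (*Isyna1*, *Slc27a1*, *Pgls*) and the cytoskeleton (*Tpm4*, *Map1s*).

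Testing required a 12-library mean of 1 FPKM or more, which 37 of the 42 members reached. They were compared on the log2(FPKM + 1) scale with limma across all 10137 such genes, with Benjamini-Hochberg adjusted p-values, and "rose" and "fell" are used of genes with an adjusted p under 0.05. Folds given below are ratios of mean FPKM. The log2 changes beside them are smaller than the log2 of these folds for genes of low level, because of the added 1. In M1, 12 of the 37 members (32.4%) differed between *Mirc11-/-* and wildtype macrophages, 7 higher and 5 lower, against 13.9% of all tested genes, 5.99% higher and 7.96% lower. In M2, 12 of 37 (32.4%) differed, 8 higher and 4 lower, against 4.59% of all tested genes, 2.5% higher and 2.09% lower. The members were chosen with earlier results of these data known, so these and later shares of members are descriptions only. After median-of-ratios scaling the M1 split was 10 higher and 4 lower for the members and 782 higher and 630 lower for all genes, in place of 607 higher and 807 lower as deposited. The median change of the members was -0.02 in M1 and 0.08 in M2, against -0.02 and 0.00 for all tested genes, and the median size of the change regardless of sign was 0.15 in M1 and 0.18 in M2, against 0.09 and 0.07. In the 6 libraries whose labels agree, 7 members differed in M1 and 5 in M2, and with groups from the treatment field *Ocel1* alone did. Fewer expressing cells and less RNA per cell cannot be told apart in these bulk samples. FPKM, being scaled to a library's total, also gives no absolute amounts of RNA.

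**Figure D1:**
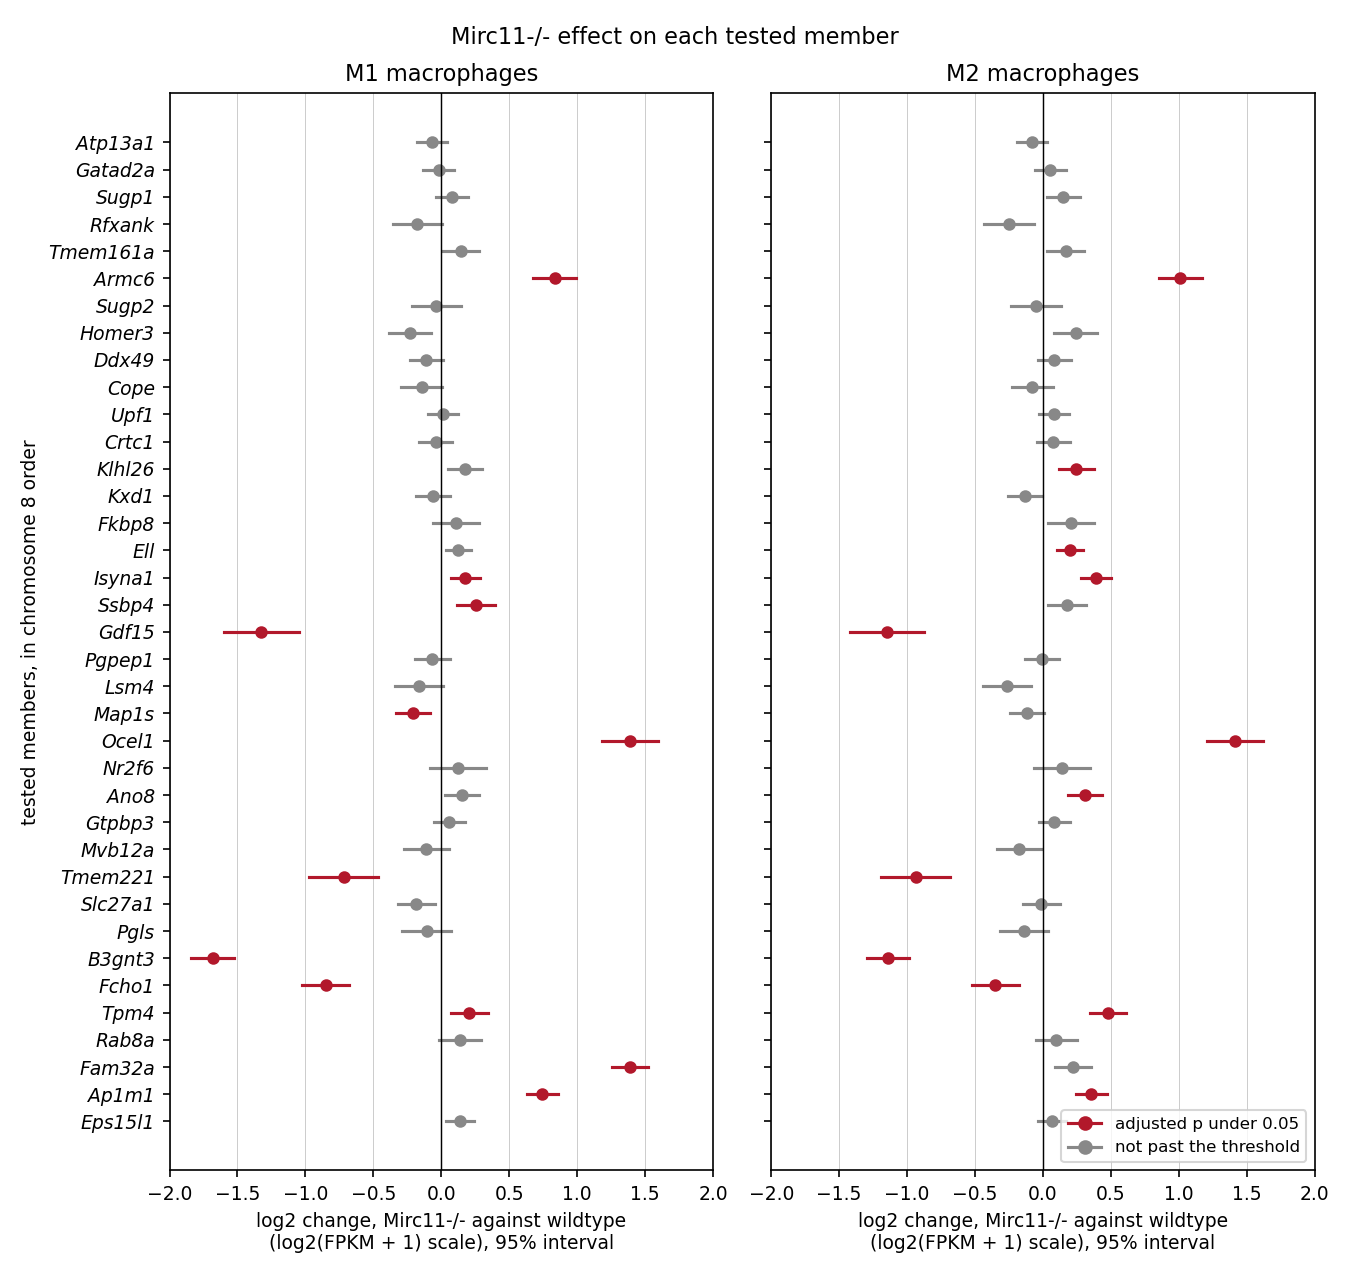
Change between *Mirc11-/-* and wildtype macrophages for the 37 tested members in their order along chromosome 8, in M1 (left) and M2 (right), on the log2(FPKM + 1) scale with 95% intervals. Red marks an adjusted p under 0.05, reached by 12 members in each condition; members of opposite change stand beside members near 0.

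*Ocel1* rose by the largest amount in M2 and by a like amount in M1. The gene encodes a protein with the domain shared by occludin and the elongation factor ELL, and little is known of its function. In M1 its level was 31.2, 34.5 and 34.8 FPKM in *Mirc11-/-* libraries, against 13.6, 10.7 and 12.3 FPKM in wildtype libraries. In M2 it was 29.8, 36.6 and 30.2 FPKM in *Mirc11-/-* libraries, against 11.3, 10.6 and 12.3 FPKM in wildtype libraries. Every knockout library was above every wildtype library in both conditions. The *Mirc11-/-* mean was 2.74-fold the wildtype mean in M1 (log2 change 1.39 ± 0.09 SE, adjusted p = 4.79e-06) and 2.82-fold in M2 (1.41 ± 0.09, adjusted p = 9.38e-06). The effects in M1 and M2 differed by -0.03 (95% interval -0.32 to 0.27). In the libraries whose labels agree the M1 change was 1.22 (adjusted p = 0.00603) and the M2 change 1.46 (adjusted p = 0.00741).

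The promoters of *Ocel1* and *B3gnt3* are shown because in M1 these members rose and fell by the largest amounts among those that changed in both conditions. Each is the 300 bases from 250 before to 50 after the start of the gene in RefSeq (GRCm38.p6), chr8:71371048-71371347 on the plus strand for *Ocel1* and chr8:71701751-71702050 on the minus strand for *B3gnt3*. Capitals mark the GC box (GGGCGG) and the CCAAT box (CCAAT), searched on both strands.
*Ocel1*: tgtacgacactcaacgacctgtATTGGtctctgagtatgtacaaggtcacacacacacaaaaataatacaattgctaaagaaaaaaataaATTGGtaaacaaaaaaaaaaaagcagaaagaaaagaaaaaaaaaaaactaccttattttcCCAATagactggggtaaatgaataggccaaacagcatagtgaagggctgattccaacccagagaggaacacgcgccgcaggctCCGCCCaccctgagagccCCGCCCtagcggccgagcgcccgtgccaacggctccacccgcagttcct
*B3gnt3*: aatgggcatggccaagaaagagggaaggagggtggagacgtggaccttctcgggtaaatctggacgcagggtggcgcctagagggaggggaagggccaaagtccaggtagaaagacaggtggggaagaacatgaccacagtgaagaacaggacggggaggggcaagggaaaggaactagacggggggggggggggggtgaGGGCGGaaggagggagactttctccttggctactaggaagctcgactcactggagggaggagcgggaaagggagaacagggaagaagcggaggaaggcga

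The *Ocel1* window held 2 GC boxes and 3 CCAAT boxes, and the *B3gnt3* window 1 GC box and no CCAAT box. Of 32851 promoters, 35.7% held a GC box and 37.4% a CCAAT box. Among the 36 members with a promoter in the table, 28 held a GC box and 17 a CCAAT box in any listed window, while no member held a TATA box (TATAAA), which 13.6% of all promoters held. The member counts are per gene over all its windows and the shares of promoters per window, so they do not compare like with like. The window at the first start of *Gdf15* held none of these motifs, no cyclic AMP response element (TGACGTCA), no AP-1 site (TGANTCA) and no C/EBP-ATF element (TGATGNAA), while the window at its other listed start held 1 CCAAT box and none of the rest, and this says nothing of such sites outside them.

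*Armc6* encodes an armadillo repeat protein and rose in both conditions. The M1 level was 3.04, 2.64 and 3.06 FPKM in *Mirc11-/-* libraries, against 1.24, 1.35 and 0.997 FPKM in wildtype libraries. The M2 level was 6.38, 6.63 and 6.04 FPKM in *Mirc11-/-* libraries, against 2.45, 2.81 and 2.69 FPKM in wildtype libraries. No library of 1 genotype reached into the range of the other within a condition, although the M1 knockout and M2 wildtype levels lay side by side. The mean was 2.44-fold that of wildtype in M1 (log2 change 0.84 ± 0.07 SE, adjusted p = 4e-05) and 2.40-fold in M2 (1.01 ± 0.07, adjusted p = 1.4e-05), and the effects differed by -0.18 (95% interval -0.40 to 0.05). Where labels agree the changes were 0.77 (adjusted p = 0.0116) and 1.12 (adjusted p = 0.00753). *Armc6* overlaps its neighbour *Sugp2* in the annotation, and whether counting used strand is not given in the sources used here. *Sugp2*, a protein of splicing complexes, was 3.90 to 4.06 FPKM in *Mirc11-/-* M1 and 3.59 to 4.68 FPKM in wildtype M1 libraries and passed the test in neither condition.

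*Fam32a* rose in M1 by as much as *Ocel1* on the log2 scale. It encodes a small nuclear protein that in human cells is part of the catalytic spliceosome. In M1 its level was 95.6, 98.8 and 99.5 FPKM in *Mirc11-/-* libraries, against 39.1, 36.1 and 35.4 FPKM in wildtype libraries. In M2 it was 54.1, 57.3 and 51.5 FPKM in *Mirc11-/-* libraries, against 46.0, 43.7 and 49.7 FPKM in wildtype libraries. The knockout libraries lay above the wildtype libraries in both conditions, far apart in M1 and close together in M2. The mean was 2.66-fold that of wildtype in M1 (log2 change 1.39 ± 0.06 SE, adjusted p = 1.09e-07), while the M2 change of 0.22 ± 0.06 did not pass (adjusted p = 0.0622). The difference between the effects, M1 minus M2, was 1.17 (95% interval 0.98 to 1.35, adjusted p = 6.3e-05). With the labels that agree the M1 change was 1.29 (adjusted p = 0.000644) and the difference 1.02 (adjusted p = 0.0154).

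*Ap1m1* encodes the medium subunit of the AP-1 clathrin adaptor, which sorts cargo between the trans-Golgi network and endosomes. The M1 level was 40.6, 40.7 and 40.4 FPKM in *Mirc11-/-* libraries, against 24.3, 23.3 and 23.9 FPKM in wildtype libraries. The M2 level was 34.6, 34.8 and 30.1 FPKM in *Mirc11-/-* libraries, against 25.5, 25.8 and 25.7 FPKM in wildtype libraries. The genotypes did not overlap in either condition, and 1 *Mirc11-/-* M2 library was nearer to wildtype than the others. The mean was 1.70-fold that of wildtype in M1 (log2 change 0.74 ± 0.05 SE, adjusted p = 7.38e-06) and 1.29-fold in M2 (0.36 ± 0.05, adjusted p = 0.00279), and the rise was larger in M1 by 0.39 (95% interval 0.22 to 0.55, adjusted p = 0.0232). Where labels agree the changes were 0.72 (adjusted p = 0.00434) and 0.43 (adjusted p = 0.0433), and the difference of 0.28 did not pass (adjusted p = 0.218). That call was also lost without library Ako2271M1, Ako2272M1, Wt2261M1, Wt2260M2 or Wt2261M2 (adjusted p up to 0.071).

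*Gdf15* fell in both conditions. It encodes growth differentiation factor 15, a secreted member of the TGF-β superfamily that cells release under stress and that acts on the receptor GFRAL in the hindbrain. In M1 its level was 1.94, 1.78 and 2.12 FPKM in *Mirc11-/-* libraries, against 6.24, 8.22 and 4.96 FPKM in wildtype libraries. In M2 it was 3.08, 2.76 and 2.97 FPKM in *Mirc11-/-* libraries, against 7.66, 7.01 and 8.58 FPKM in wildtype libraries. Knockout libraries were tightly grouped and below every wildtype library, and the wildtype M1 libraries were the most scattered. The mean was 3.33-fold lower in *Mirc11-/-* M1 than in wildtype M1 macrophages (log2 change -1.32 ± 0.13 SE, adjusted p = 6.81e-05) and 2.64-fold lower in M2 (-1.15 ± 0.13, adjusted p = 0.000374). The effects differed by -0.17 (95% interval -0.56 to 0.21), and with the labels that agree they were -1.34 (adjusted p = 0.00206) and -1.14 (adjusted p = 0.00665).

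*B3gnt3* had the largest fall of any member in M1. It encodes a Golgi β-1,3-N-acetylglucosaminyltransferase that extends O-linked glycans. Under M1 polarization it was 0.952, 1.02 and 1.34 FPKM in *Mirc11-/-* libraries, against 6.19, 5.50 and 5.53 FPKM in wildtype libraries. Under M2 polarization it was 2.91, 3.14 and 3.10 FPKM in *Mirc11-/-* libraries, against 7.66, 7.81 and 8.34 FPKM in wildtype libraries. All knockout libraries of both conditions lay below all wildtype libraries of either. The mean was 5.20-fold lower than in wildtype in M1 (log2 change -1.68 ± 0.07 SE, adjusted p = 1.09e-07) and 2.60-fold lower in M2 (-1.14 ± 0.07, adjusted p = 5.59e-06), and the fall was larger in M1 by 0.54 on the log2 scale (difference -0.54, 95% interval -0.76 to -0.32, adjusted p = 0.0201). With the labels that agree the changes were -1.86 (adjusted p = 0.000371) and -1.11 (adjusted p = 0.00588), and the difference of -0.75 did not pass (adjusted p = 0.071). The difference was also lost without library Ako2271M1, Ako2272M1 or Wt2260M2 (adjusted p up to 0.0657), and under quantile normalization (adjusted p = 0.0588).

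*Fcho1* encodes an F-BAR protein that starts clathrin-coated pits at the plasma membrane. In M1 its level was 1.23, 1.29 and 1.19 FPKM in *Mirc11-/-* libraries, against 3.21, 2.70 and 3.21 FPKM in wildtype libraries. In M2 it was 1.44, 1.53 and 1.15 FPKM in *Mirc11-/-* libraries, against 2.26, 1.92 and 1.88 FPKM in wildtype libraries. The genotypes were well apart in M1 and separated by a small gap in M2. The mean was 2.45-fold lower in M1 (log2 change -0.85 ± 0.08 SE, adjusted p = 6.72e-05) and 1.48-fold lower in M2 (-0.35 ± 0.08, adjusted p = 0.027), with a difference of -0.50 (95% interval -0.74 to -0.25, adjusted p = 0.0458). Where labels agree the M1 change was -0.89 (adjusted p = 0.00434), while the M2 change of -0.39 (adjusted p = 0.101) and the difference of -0.50 (adjusted p = 0.139) did not pass. The M2 call was also lost in a fit of the compared groups alone and without library Ako2271M2, Ako2273M2, Wt2260M2 or Wt2261M2 (adjusted p up to 0.107), and the difference without any library except Ako2273M2 and Wt2261M1 (adjusted p up to 0.119). A pseudocount of 0.1, no minimum and quantile normalization also ended the call of the difference (adjusted p = 0.0666, 0.0768 and 0.0922 in that order).

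*Tmem221*, a transmembrane protein of unknown function, fell in both conditions. In M1 its level was 2.36, 3.12 and 2.94 FPKM in *Mirc11-/-* libraries, against 5.20, 4.55 and 6.06 FPKM in wildtype libraries. The M2 level was 3.27, 4.28 and 3.50 FPKM in *Mirc11-/-* libraries, against 7.66, 7.15 and 9.10 FPKM in wildtype libraries. Knockout libraries were lower throughout. The mean was 1.88-fold lower in M1 (log2 change -0.72 ± 0.12 SE, adjusted p = 0.00223) and 2.16-fold lower in M2 (-0.94 ± 0.12, adjusted p = 0.000824), and the effects differed by 0.22 (95% interval -0.14 to 0.57). With the labels that agree the changes were -0.74 (adjusted p = 0.0616) and -0.87 (adjusted p = 0.0756), so that both calls were lost.

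**Figure D2:**
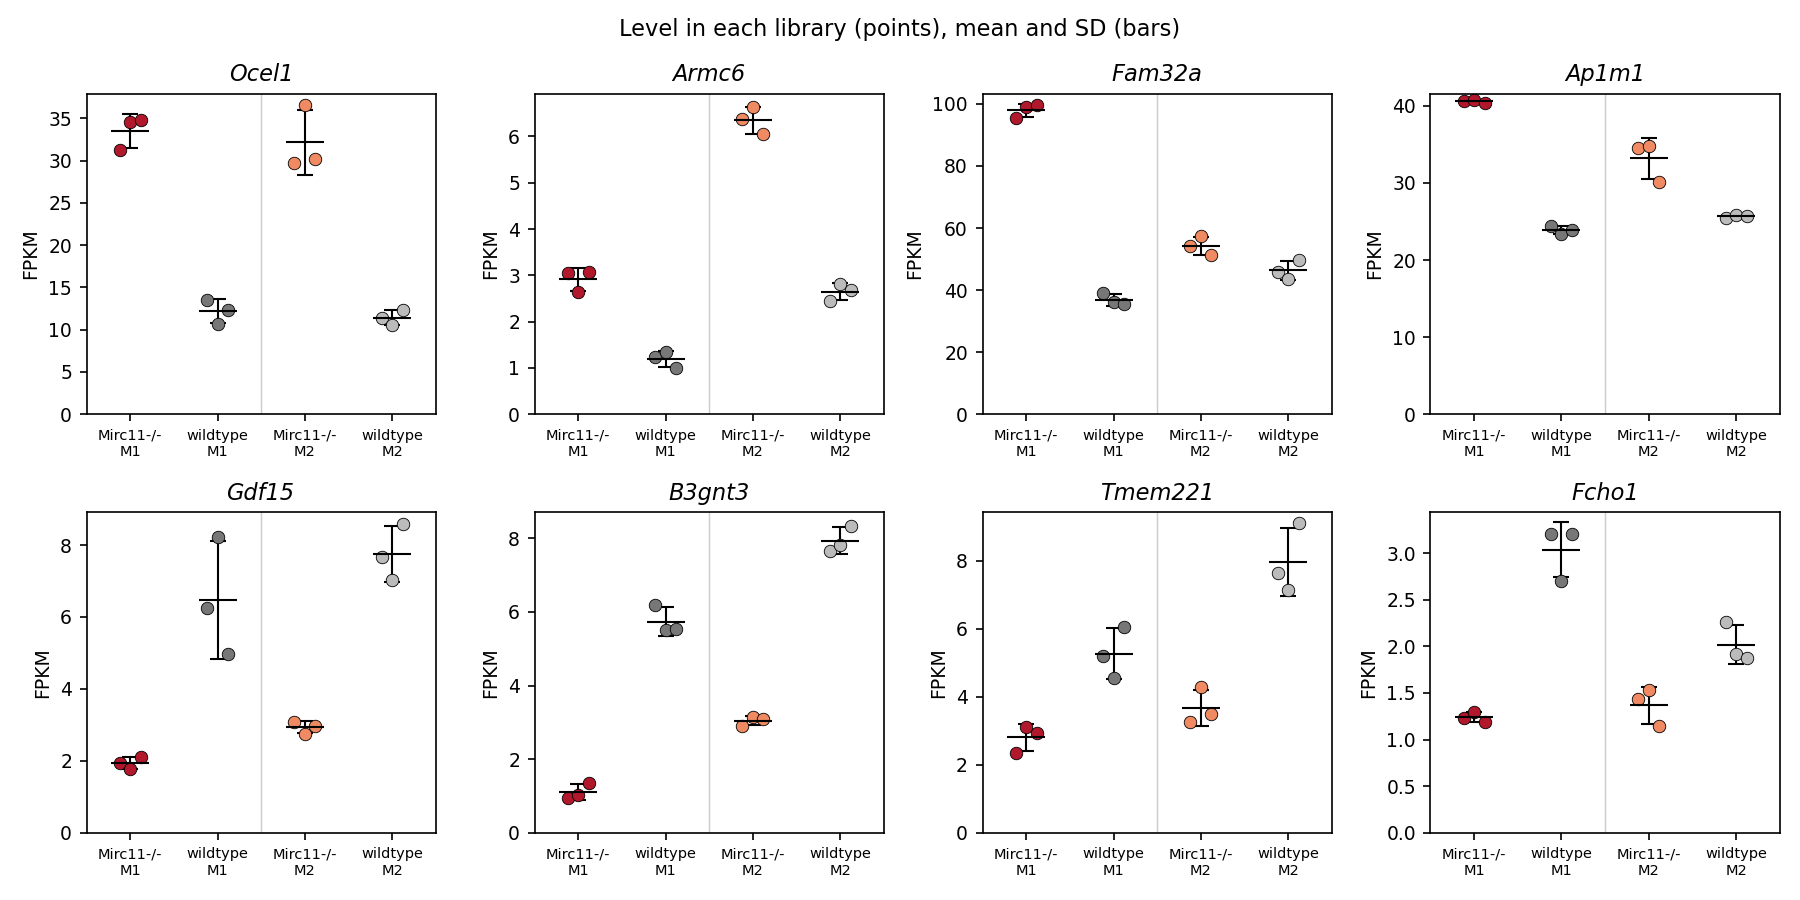
FPKM of the 8 members with the largest changes in each of the 12 libraries, by group, with *Mirc11-/-* left of wildtype in M1 and then in M2. Points are libraries and bars the mean and SD of 3; *Ocel1*, *Armc6*, *Fam32a* and *Ap1m1* (top) were higher in *Mirc11-/-*, and *Gdf15*, *B3gnt3*, *Tmem221* and *Fcho1* (bottom) lower, in every library of a condition.

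The other members that passed the test changed by less than 0.5 on the log2 scale. *Tpm4*, a tropomyosin of actin filaments and the most abundant tested member, rose by 0.48 in M2 (adjusted p = 0.00098) and by 0.21 in M1 (adjusted p = 0.0457). *Isyna1*, the inositol-3-phosphate synthase that starts inositol synthesis, rose by 0.39 in M2 (adjusted p = 0.000897) and by 0.18 in M1 (adjusted p = 0.0344). *Ssbp4*, a partner of LIM-domain binding proteins in transcription, rose by 0.26 in M1 (adjusted p = 0.0196), and *Map1s*, a microtubule-associated protein, fell by 0.21 in M1 (adjusted p = 0.0314). In M2 alone *Ano8*, an anoctamin of the endoplasmic reticulum and plasma membrane contacts, rose by 0.31 (adjusted p = 0.00981), *Klhl26*, a Kelch-like protein, by 0.25 (adjusted p = 0.0342) and *Ell*, an RNA polymerase II elongation factor, by 0.20 (adjusted p = 0.0217). For none of these 5 members was a difference between M1 and M2 called, the adjusted p of the difference being between 0.423 and 0.791. With the labels that agree none of these small changes passed (adjusted p from 0.0547 for *Isyna1* in M2 to 0.388 for *Isyna1* in M1). Single libraries mattered for all of them except *Tpm4* and *Isyna1* in M2. The call was lost for *Tpm4* in M1 without any library except Ako2272M2 and Wt2262M2 (adjusted p up to 0.147), for *Isyna1* in M1 without any M1 library except Ako2271M1 (up to 0.106) and for *Map1s* without any M1 library except Ako2272M1 (up to 0.105). It was lost for *Ssbp4* without Ako2272M1, Ako2273M1 or Wt2261M1 (adjusted p up to 0.0863), and for *Klhl26* without any M2 library except Wt2262M2 (up to 0.134). It was lost for *Ell* without Ako2271M2, Ako2272M2, Wt2260M2 or Wt2261M2 (adjusted p up to 0.108), and for *Ano8* without Ako2271M2 or Wt2261M2 (up to 0.0524). A fit of the compared groups alone ended the calls of *Tpm4*, *Isyna1* and *Map1s* in M1 and of *Klhl26* and *Ell* in M2, having no minimum those of *Tpm4* in M1 and *Klhl26*, quantile normalization that of *Tpm4* in M1 and median-of-ratios scaling that of *Map1s*.

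The remaining 22 tested members passed in neither condition. Their mean levels ran from 2.37 FPKM for *Rfxank* to 110.2 FPKM for *Cope*, and their changes from -0.23 to 0.15 in M1 and from -0.27 to 0.24 in M2. The 5 members grouped under RNA processing and decay (*Sugp1*, *Sugp2*, *Ddx49*, *Upf1* and *Lsm4*) were among them. That group left out *Fam32a*, the spliceosome protein that rose in M1. Of the 5, 0 had an unadjusted p under 0.05 in limma's test in M1 and 2 in M2. Among all 10137 tested genes 2831 did in M1 and 1861 in M2. Also called in neither condition were *Atp13a1*, *Gatad2a*, *Rfxank*, *Tmem161a*, *Homer3*, *Cope*, *Crtc1*, *Kxd1*, *Fkbp8*, *Pgpep1*, *Nr2f6*, *Gtpbp3*, *Mvb12a*, *Slc27a1*, *Pgls*, *Rab8a* and *Eps15l1*. The libraries of the genotypes did not overlap for 21 of the 37 tested members in M1 (56.8%), against 31.5% of all tested genes, and for 23 in M2 (62.2%), against 23.6%, so that 9 and 11 members separated without passing the test.

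The sign of the *Mirc11-/-* effect was the same in M1 and M2 for 33 of the 37 tested members (89.2%), against 64.9% of all tested genes. The members called in both conditions numbered 9, 5 higher (*Ocel1*, *Armc6*, *Ap1m1*, *Tpm4*, *Isyna1*) and 4 lower (*Gdf15*, *B3gnt3*, *Tmem221*, *Fcho1*), and none was called in opposite directions. Among all tested genes 2.32% were called in both with the same sign and 0.109% with opposite signs. The M1 and M2 comparisons share no library, but both were made with macrophages of the same title numbers. The effect differed between M1 and M2 for 5 members (13.5%), 2 with a positive and 3 with a negative difference, against 1.85% of all tested genes, 0.937% positive and 0.917% negative, and for 1, *Fam32a*, in the libraries whose labels agree, where 28 of the 37 had the same sign.

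Besides *Fam32a*, *Ap1m1*, *B3gnt3* and *Fcho1*, the difference was called for *Homer3*, a scaffold protein that links glutamate receptors and calcium channels. In M1 its level was 5.51, 5.98 and 6.48 FPKM in *Mirc11-/-* libraries, against 7.56, 7.73 and 6.37 FPKM in wildtype libraries. Under M2 polarization it was 21.2, 21.3 and 20.2 FPKM in *Mirc11-/-* libraries, against 17.0, 18.6 and 17.0 FPKM in wildtype libraries. The genotypes overlapped in M1, with the knockout mostly lower, and did not overlap in M2, with the knockout higher. Neither change passed by itself (M1 change -0.23, adjusted p = 0.0503, M2 change 0.24, adjusted p = 0.0838), while the difference was -0.47 (95% interval -0.69 to -0.25, adjusted p = 0.0374). It was -0.65 with the labels that agree (adjusted p = 0.0803), and was lost without any library except Ako2273M1, Wt2262M1 and Wt2261M2 (adjusted p up to 0.1). The call also ended with no minimum (adjusted p = 0.0686) and under quantile normalization (adjusted p = 0.0687). *Homer3* overlaps *Ddx49* in the annotation, which was called in neither condition.

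**Figure D3:**
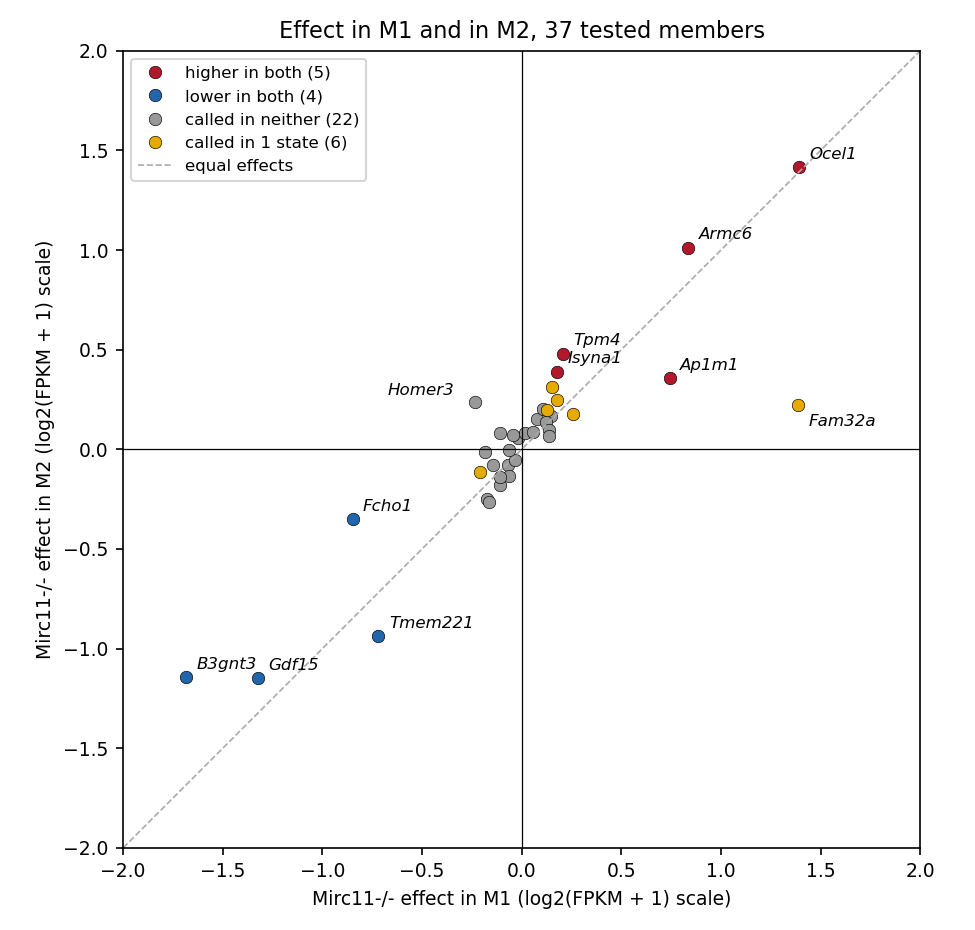
*Mirc11-/-* effect in M1 (horizontal) against M2 (vertical) for the 37 tested members, both on the log2(FPKM + 1) scale, coloured by the conditions in which a member passed the test. The dashed line marks equal effects: *Ocel1* lies on it, *Fam32a* and *Ap1m1* below it, and *Homer3* in the quadrant of opposite signs.

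Most members, like most genes, differed between the polarizations. Between M1 and M2 macrophages, 30 of the 37 members (81.1%) differed in *Mirc11-/-* (8 higher and 22 lower in M1), against 80% of all tested genes (26% higher and 54% lower), and 26 (70.3%) in wildtype (7 higher and 19 lower), against 78.6% (26.6% higher and 52% lower), shares near or below those of all genes. In the 6 libraries whose labels agree 28 members differed in *Mirc11-/-* and 18 in wildtype. The median over all genes was itself -0.21 in *Mirc11-/-* and -0.19 in wildtype, and after median-of-ratios scaling, which removed that shift, 13 members were higher and 13 lower in *Mirc11-/-*, and 11 higher and 13 lower in wildtype. Among the largest were lower levels in M1 of *Homer3* (-1.65 in *Mirc11-/-*, -1.18 in wildtype), *Isyna1* (-1.54 and -1.33 in the same order) and *Slc27a1*, a fatty acid transport protein (-1.26 and -1.09), and a higher level in M1 of *Tpm4* (0.56 and 0.83). Each kept its direction under both other scalings.

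The polarization change differed between the genotypes for the same 5 members, since this is the same contrast as the difference of the effects given above. *Fam32a* was higher in M1 than in M2 by 0.84 in *Mirc11-/-* macrophages (adjusted p = 4.96e-08) and lower in M1 by 0.33 in wildtype macrophages (log2 change -0.33, adjusted p = 0.000302), a value reduced to -0.10 and not called after median-of-ratios scaling (adjusted p = 0.162). *Fcho1* did not pass in *Mirc11-/-* (-0.08, adjusted p = 0.376), where quantile normalization gave 0.22 (adjusted p = 0.0311), and was higher in M1 in wildtype (0.42, adjusted p = 0.000355). *Ap1m1* was higher in M1 in *Mirc11-/-* (0.29, adjusted p = 0.000292) and did not pass in wildtype (-0.10, adjusted p = 0.0972, and 0.12, adjusted p = 0.0516, after median-of-ratios scaling). *B3gnt3* was lower in M1 in both, by more in *Mirc11-/-* (-0.95) than in wildtype (-0.41), as was *Homer3*. *Ocel1* passed in neither genotype (0.06 in *Mirc11-/-* and 0.09 in wildtype), but in both after median-of-ratios scaling (0.32 and 0.30).

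The 5 members under the minimum of 1 FPKM were *Hsh2d*, *Unc13a*, *Slc25a42*, *Mef2b* and *Plvap*. *Hsh2d*, an adaptor with an SH2 domain in hematopoietic cells, was 2.62, 3.30 and 3.10 FPKM in *Mirc11-/-* M1 libraries, against 0.256, 0.221 and 0.398 FPKM in wildtype M1 libraries. In M2 it was 0.471, 0.322 and 0.143 FPKM in *Mirc11-/-* libraries, against 0.105, 0.053 and 0.154 FPKM in wildtype libraries. It was thus high in the *Mirc11-/-* M1 group alone, with no overlap in M1 and with overlap in M2. Its mean over all libraries was 0.929 FPKM, just under the minimum. When genes of any level were fitted, the M1 change was 1.63 (adjusted p = 2.45e-05) and the M2 change 0.24 (adjusted p = 0.241), with a difference of 1.39 (adjusted p = 0.00284).

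*Mef2b*, a transcription factor best known in germinal centre B cells, was 0.218, 0.197 and 0.333 FPKM in *Mirc11-/-* M1 libraries, against 0.0236, 0 and 0 FPKM in wildtype M1 libraries. In M2 it was 0.217, 0.405 and 0.154 FPKM in *Mirc11-/-* libraries, against 0.0241, 0.0244 and 0.0473 FPKM in wildtype libraries. It was low everywhere and higher in all *Mirc11-/-* than in all wildtype libraries (with no minimum, M1 change 0.31, adjusted p = 0.0188, M2 change 0.28, adjusted p = 0.0463). The summed level of 6 B cell markers was 0.166 to 0.381 FPKM in *Mirc11-/-* M1, against 0.123 to 0.417 FPKM in wildtype M1 libraries, and 1.32 to 1.76 FPKM in *Mirc11-/-* M2, against 0.494 to 1.12 FPKM in wildtype M2 libraries, nearly all from *Cd79b*, with *Pax5* at 0 throughout, and its part in the *Mef2b* values was not tested.

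*Unc13a*, a priming factor of synaptic vesicles, was 0.689, 0.563 and 0.533 FPKM in *Mirc11-/-* M1 libraries, against 0.362, 0.453 and 0.465 FPKM in wildtype M1 libraries, a change of 0.16 with no minimum (adjusted p = 0.0329). The M2 level was 0.195, 0.185 and 0.227 FPKM in *Mirc11-/-* libraries, against 0.140, 0.153 and 0.171 FPKM in wildtype libraries, and did not pass (0.06, adjusted p = 0.534). The genotypes did not overlap in either condition. *Slc25a42*, a mitochondrial carrier of coenzyme A, was 0.301 to 0.582 FPKM in *Mirc11-/-* libraries and 0.265 to 0.437 FPKM in wildtype libraries and did not pass (adjusted p = 0.187 in M1 and 0.267 in M2). *Plvap*, a protein of endothelial diaphragms, was at most 0.0754 FPKM in any library, too low for a comparison. The summed level of 8 endothelial markers was 13.4 to 16.0 FPKM in *Mirc11-/-* M1, against 9.29 to 11.5 FPKM in wildtype M1 libraries, and 7.39 to 9.33 FPKM in *Mirc11-/-* M2, against 5.16 to 7.30 FPKM in wildtype M2 libraries, nearly all from *Pecam1* and *Kdr*, with *Cldn5* and *Emcn* at 0 throughout, and its part in the results was not tested.

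**Figure D4:**
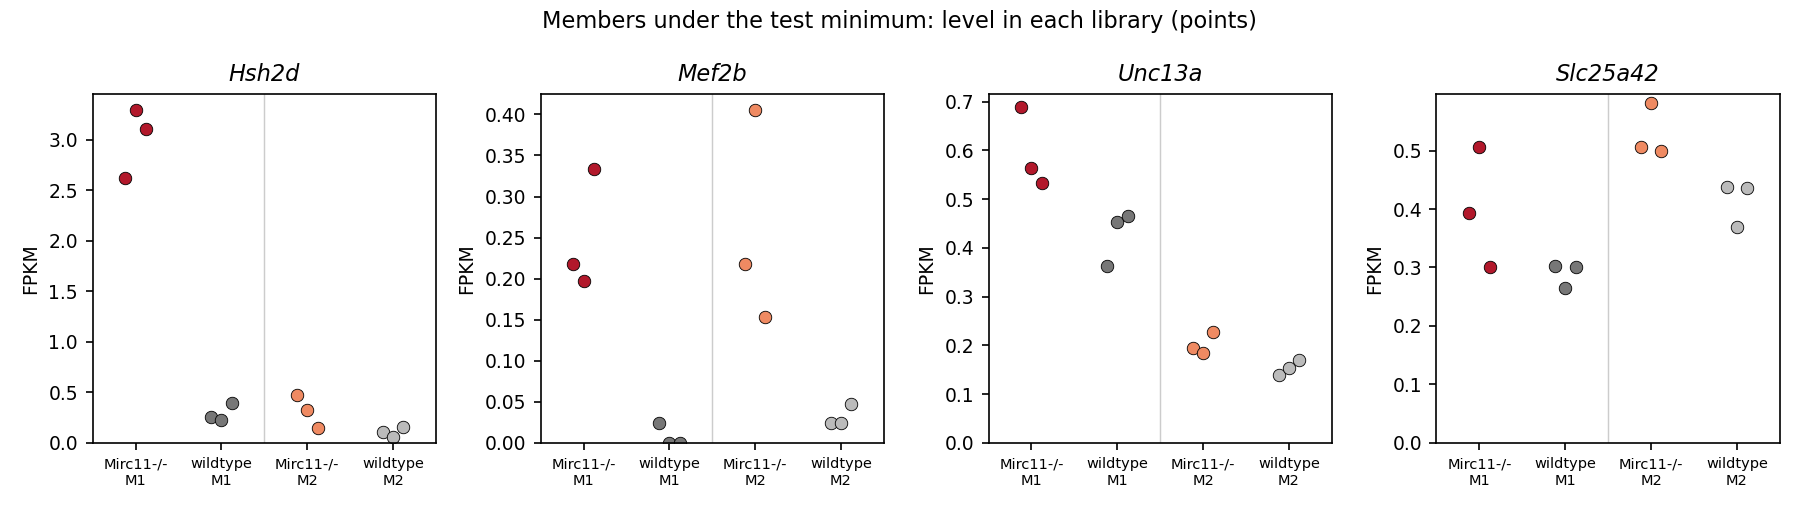
FPKM of 4 members under the minimum of 1 FPKM in each of the 12 libraries, *Mirc11-/-* left of wildtype in M1 and then in M2, with 1 point per library. *Hsh2d* reached 2.62 to 3.30 FPKM in *Mirc11-/-* M1 libraries, while the other 3 genes stayed at or under 0.689 FPKM in all libraries.

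Genes that work with individual members were compared as groups from lists of pathway partners. Of 8 genes of the AP-1 adaptor and clathrin, 3 rose in M1, *Ap1m1*, *Ap1b1* (0.26, adjusted p = 0.0168) and *Ap1s1* (0.25, adjusted p = 0.0252), and 1 fell, the clathrin light chain *Cltb* (-0.42, adjusted p = 0.0109). In M2, *Ap1m1* and *Ap1b1* (0.27, adjusted p = 0.0274) rose and *Cltb* fell (-0.37, adjusted p = 0.0448). In the libraries whose labels agree, of these partners of *Ap1m1* only *Cltb* in M1 passed (-0.61, adjusted p = 0.0292), the others having an adjusted p of 0.175 to 0.516. Calls were also lost without Ako2272M1, Ako2273M1, Wt2260M1 or Wt2261M1 for *Ap1b1* in M1 (adjusted p up to 0.0624), without any M2 library but Wt2262M2 for *Ap1b1* in M2 (up to 0.123), without Ako2272M1, Ako2273M1, Wt2261M1 or Wt2262M1 for *Ap1s1* (up to 0.105) and without any library but Ako2271M1, Ako2273M1, Wt2262M1 and Wt2262M2 for *Cltb* in M2 (up to 0.175). The median of the 8 was 0.13 in M1 and 0.10 in M2, against -0.02 and 0.00 over all tested genes. Of all tested genes, 5.99% rose and 7.96% fell in M1, and 2.5% rose and 2.09% fell in M2.

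Of 12 tested stress genes that ATF4, CHOP or p53 are known to induce alongside *Gdf15*, 0 fell in either condition by limma. Of all tested genes 7.96% fell in M1 and 2.09% in M2, so 0 of 12 lies near these shares. At an unadjusted p under 0.05, 4 were lower and 4 higher in M1, and 0 were lower and 4 higher in M2. Among all 10137 tested genes 2831 had such a p in M1 and 1861 in M2, in either direction. The median of the 12 was -0.01 in M1 and 0.17 in M2. *Psat1*, an enzyme of serine synthesis, rose in M1 (1.66, adjusted p = 2.57e-06), and *Sesn2*, a regulator of mTORC1, rose in M1 (0.23, adjusted p = 0.0328) and M2 (0.74, adjusted p = 5.91e-05). Where labels agree *Psat1* in M1 (1.56, adjusted p = 0.000644) and *Sesn2* in M2 (0.79, adjusted p = 0.0162) passed and *Sesn2* in M1 did not (adjusted p = 0.209), which was also lost without any M1 library but Ako2271M1 (adjusted p up to 0.127). *Rfxank* encodes a subunit of the RFX complex, which binds MHC class II promoters. It was 2.10 to 2.53 FPKM in *Mirc11-/-* M1, against 2.45 to 2.95 FPKM in wildtype M1 libraries, and did not pass (-0.18, adjusted p = 0.194). Nor did the other RFX subunits pass in M1, *Rfx5* (0.14, adjusted p = 0.181) and *Rfxap* (-0.16, adjusted p = 0.108). In M1, 6 of the 11 genes of the RFX and MHC class II list fell, against 7.96% of all tested genes. Among them were *H2-Ab1* (-0.72, adjusted p = 0.00284), *H2-Aa* (-0.80, adjusted p = 0.00381), *H2-Eb1* (-0.79, adjusted p = 0.00515) and *Ciita* (-0.70, adjusted p = 0.00763). In M2, 1 of the 11, *H2-Ab1*, fell (-0.52, adjusted p = 0.0316), against 2.09% of all tested genes. The median of the 11 was -0.54 in M1 and -0.20 in M2. The M1 calls of *H2-Ab1*, *H2-Aa* and *H2-Eb1* held where labels agree (adjusted p of 0.0033 to 0.0052). The M2 call of *H2-Ab1* did not (adjusted p = 0.0756) and was also lost without Ako2272M1 or any M2 library but Ako2272M2 (adjusted p up to 0.115). Of 8 genes of nonsense-mediated decay, to which *Upf1* belongs, only *Upf3b* passed (-0.37 in M1, adjusted p = 0.0076, and 0.0647 where labels agree), and of 7 COPI coat genes, to which *Cope* belongs, 0 passed in limma's test in either condition, and 0 had an unadjusted p under 0.05.

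Along chromosome 8, 558 genes were tested, and the tested members stand between the tested genes numbered 172 and 243 in order, with 48 tested genes between the last member and the deleted cluster. The share of genes that differed was 22.4% in M1 and 13.3% in M2 for the whole chromosome, the highest of 20 chromosomes in each condition, against 13.5% and 4.09% for genes placed on other chromosomes. Within the interval from *Atp13a1* to *Eps15l1*, the 35 tested genes that are not members differed in 42.9% (M1) and 34.3% (M2), beside 32.4% of the members in each. Between the interval and the cluster the shares were 33.3% and 22.9%, before the interval 21.1% and 6.43%, and after the cluster 17.2% and 10.5%. The changes thus ran through the neighbours of the members as well.

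**Figure D5:**
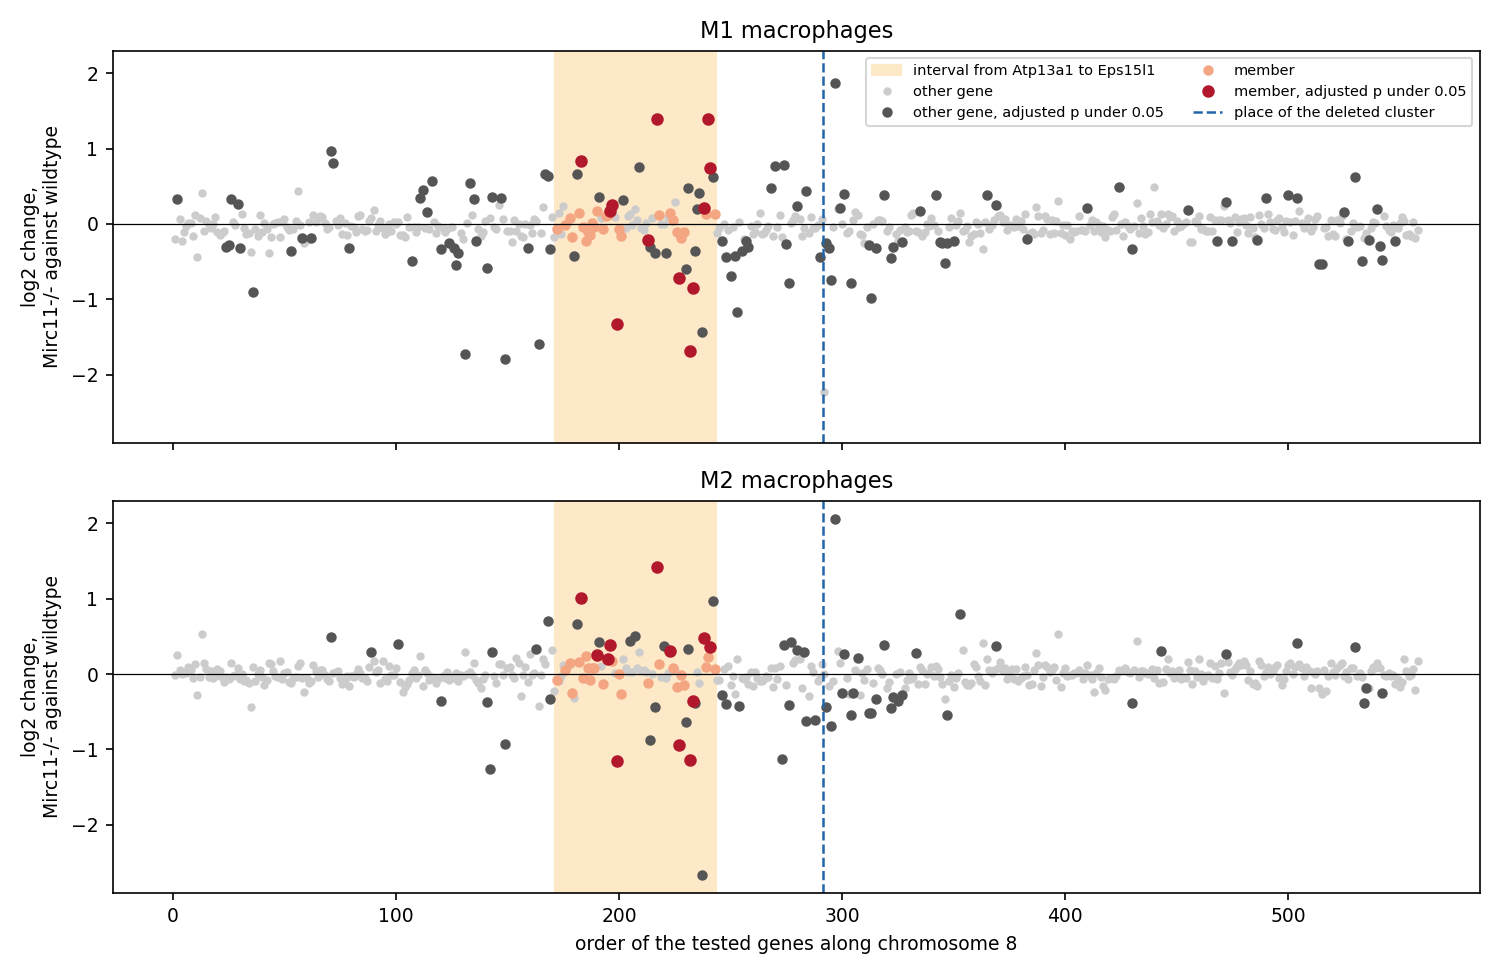
Change between *Mirc11-/-* and wildtype for the 558 tested genes of chromosome 8 in their order, in M1 (top) and M2 (bottom), on the log2(FPKM + 1) scale. The shaded interval from *Atp13a1* to *Eps15l1* holds the members (red where called), dark grey points are other called genes, and the dashed line marks the place of the deleted cluster.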

How the data were processed

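Per the labels, reads were aligned to mm9 with STAR 2.5.1 and expression was estimated with Cufflinks. The authors deposited FPKM per gene and library, and annotation, filters and strand setting are not given in the sources used here. The tables of the authors' own comparisons, log2 fold changes and adjusted p-values, were not used. Gene order came from RefSeq, to which 23686 genes matched (22450 by symbol, 1236 by synonym). FPKM holds no read counts. Relative depth, read from steps of the lowest values, was 0.79 to 1.28, and 14366 to 14708 genes were above 0 in a library.

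limma 3.58.1 (R 4.3.3) was fitted to log2(FPKM + 1) with a mean-variance trend over 4 groups and 5 contrasts, after it had been tested on simulated data. Members with an adjusted p under 0.05 and a change of at least 0.5 are given in full, other called members by their changes, up to 3 pathway genes by smallest p, and up to 6 other interval genes, called in M1 and M2, by largest change in either. *Homer3* and the members under the minimum were given per library after their values were seen, and *Ciita* was likewise added to the named pathway genes. The members, gene lists and rules were chosen with earlier results of these data known. Alternatives were a pseudocount of 0.1, no minimum, median-of-ratios scaling, quantile normalization, the compared groups alone, a block by title number, each library left out, the 6 libraries whose labels agree and groups by treatment field. Tables and figures used Python 3.11.15, pandas 2.3.3 and matplotlib 3.10.9.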

Additional observations from a re-analysis of the deposited data

Results flagged for a closer look

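The test of the difference itself, M1 minus M2, separated the *Mirc11-/-* effects in M1 and M2 for 5 members. *Fam32a* had a difference of 1.17 on the log2 scale, from an effect of 1.39 in M1 and 0.22 in M2. *Ap1m1* had a difference of 0.39 (0.74 in M1 and 0.36 in M2). *B3gnt3* had a difference of -0.54 (-1.68 in M1 and -1.14 in M2) and *Fcho1* one of -0.50 (-0.85 and -0.35). *Homer3* had a difference of -0.47 (-0.23 and 0.24), with neither effect called by itself. Only that of *Fam32a* was called in each of the 12 fits with 1 library left out (adjusted p up to 0.000623). No group of 4 or more libraries was available for a check of single outlying libraries.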

How the results depend on the processing

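Groups by the treatment field, which mix the polarizations that *Nos2* and *Mrc1* separate, left 1 member called in M1 and 1 in M2 (*Ocel1* in each), 0 differences between M1 and M2 by limma (2 at an unadjusted p under 0.05), 0 members called between M1 and M2 in *Mirc11-/-* and 0 in wildtype (0 also unadjusted), 20 members with the same sign, and 1 called gene of the interval in M1 and 1 in M2. Under it the M1 changes of *Isyna1* (-0.236) and *Ssbp4* (-0.198) reversed. The 6 libraries whose labels agree left 7 members in M1, 5 in M2, 1 difference, and 15 interval genes in M1 and 10 in M2. These have fewer samples, and the lone wildtype library of each condition was assumed to vary like the other groups. Quantile normalization left 2 differences, and the cause was not tested. With each library left out in turn, 8 to 12 members were called in M1, 8 to 13 in M2 and 1 to 4 for the difference, 26 to 30 between M1 and M2 in *Mirc11-/-* and 25 to 27 in wildtype, 31 to 34 had the same sign, and 18 to 27 interval genes were called in M1 and 16 to 25 in M2. The other settings kept these counts within 1.5 times, and of the values of single members under the alternatives 511 kept direction and call, 80 lost the call, 7 gained it and 2 reversed. A replicate block by title number left 12 members in M1, 12 in M2 and 5 differences, and changed no other count. Across genes no clear pairing by number was seen: correlations of deviations were -0.29 to 0.21, and 2 of 6 M1 libraries correlated best with their own number. Some fibroblast genes of low level did follow it. *Col1a1* was 0.496 FPKM in Ako2273M1 and 0.686 FPKM in Ako2273M2, against at most 0.00492 FPKM in other *Mirc11-/-* libraries. *Col1a2* was 0.436 and 0.547 FPKM in the same 2 libraries and 0 in other *Mirc11-/-* libraries, while *Dcn* and *Lum* did not follow the number. Whether equal numbers share a marrow was not tested. With 3 libraries per group the check by correlation is weak and cannot exclude that equal numbers mark the same animal. A fit of the compared groups alone was not possible for the difference between M1 and M2, which needs all 4 groups. Low genes are limited by depth, which FPKM does not give.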

Other observations

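Of the 35 tested genes of the interval that are not members, 15 differed in M1 and 12 in M2, 9 of them in both and always with the same sign. *Cyp4f18*, a cytochrome P450 known in mouse neutrophils to hydroxylate leukotriene B4, averaged 0.0847 ± 0.0261 FPKM in *Mirc11-/-* M1, against 1.94 ± 0.383 FPKM in wildtype M1 macrophages, and 0.272 ± 0.0375 FPKM in *Mirc11-/-* M2, against 7.13 ± 1.03 FPKM in wildtype M2 macrophages (SD, n = 3 each). The limma change was -1.43 in M1 macrophages (adjusted p = 7.85e-06) and -2.67 in M2 macrophages (adjusted p = 5.16e-08). On this log2(FPKM + 1) scale the fall was larger in M2 (difference 1.24, adjusted p = 0.00212). The added 1 shrinks changes of values as low as those in M1, so the difference does not show a larger proportional fall in M2. The summed level of 7 neutrophil markers was 35.6 to 38.9 FPKM in *Mirc11-/-* M1, against 53.2 to 89.6 FPKM in wildtype M1 libraries, most of it from *S100a8* (28.5 against 56.8 FPKM on average), and 5.72 to 8.46 FPKM in *Mirc11-/-* M2, against 5.23 to 12.6 FPKM in wildtype M2 libraries, with *Elane* and *Mpo* at or near 0, and its part in the *Cyp4f18* values was not tested. *Haus8*, a subunit of the augmin complex of the spindle, fell in M1 (-0.31, adjusted p = 0.0145) and M2 (-0.88, adjusted p = 4.38e-05), also by more in M2 (difference 0.57, adjusted p = 0.0178, lost without Ako2272M1 or Ako2271M2, up to 0.0549). *Klf2*, a transcription factor that restrains macrophage activation, rose in M1 (0.62, adjusted p = 0.0345, lost without any of the 3 *Mirc11-/-* M1 libraries, Ako2271M2, Wt2261M1 or Wt2262M1, up to 0.138) and M2 (0.96, adjusted p = 0.00869), and *2310045N01Rik* in M1 (0.66) and M2 (0.66). *Glt25d1*, a collagen galactosyltransferase that overlaps the member *Unc13a* in the annotation, was lower in M1 (-0.59) and M2 (-0.64). *Jak3*, the kinase of cytokine receptors that share the common γ chain, including that for IL-4, was higher in M1 (0.48, adjusted p = 0.000667) and M2 (0.33, adjusted p = 0.0134, lost without Ako2271M2 or Wt2261M2, up to 0.0613). In the 6 libraries whose labels agree these changes kept their direction, and those of *Haus8* in M1 (adjusted p = 0.162), its difference (adjusted p = 0.265), *Klf2* in M1 (adjusted p = 0.171) and *Jak3* in M2 (adjusted p = 0.159) did not pass.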
